A study of Mus musculus with 20 samples.

Results

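Olaparib-treated tumours of the resistant line MDA594OR2 were set against olaparib-treated tumours of the sensitive line MDA594 it is named after, 3 tumours against 3. All are mouse breast cancers carried as allografts, that is, mouse tumour tissue grown in other mice, and poly(A) RNA was sequenced from each. The 6 libraries were taken by the tumour line and treatment in their titles, and they are 6 of the 20 in the series. A further MDA594 library, whose title says control and whose treatment label says treated, was left out. They are called OR2_olaparib 1 to 3 and MDA594_olaparib 1 to 3 here, and where 3 values are given for a group they stand in that order. For context the text draws on 4 olaparib-treated tumours of a second resistant line, MDA594OR1 (OR1_olaparib), and on untreated tumours of both lines (2 of OR2_control and 4 of MDA594_control). The study looked for how these tumours become resistant to olaparib, and its title describes the breast cancer as altered in homologous recombination. The sources used here give no genotype, mouse strain, age of the hosts or length of treatment, and the dose figure in the titles has no unit. Whether the treatment changed tumour growth in these animals was not analysed here.

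Olaparib blocks PARP1 and PARP2, enzymes that sense DNA breaks, and holds them on DNA. Cells that cannot repair double-strand breaks by homologous recombination depend on PARP activity and die when it is blocked. Known ways for a tumour to escape include regained homologous recombination, loss of the 53BP1 and shieldin proteins that protect broken ends, loss of the poly(ADP-ribose) hydrolase Parg, and drug efflux pumps of the ABC family. DNA damaged in this way can also reach the cytosol, where cGAS and STING sense it and switch on interferon genes and chemokines that draw in T cells and natural killer (NK) cells. An allograft also holds cells of the host (immune, vessel, stromal and muscle cells), and both host and tumour are mouse, so the reads do not separate them.

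OR2_olaparib had 94.1 to 116 M reads per library and MDA594_olaparib 63.0 to 118 M. Across genes, log2 CPM (counts per M reads) correlated at 0.927 to 0.965 among the OR2_olaparib libraries, at 0.962 to 0.984 among the MDA594_olaparib libraries and at 0.906 to 0.953 between the groups. MDA594_olaparib 1 and 2 carry the same final title code, and so do both OR2_control libraries, whereas the 3 OR2_olaparib libraries carry 3 codes. The labels do not say what the code stands for, and libraries that share one were modelled as correlated. OR2_olaparib 1 belongs to another series of library names than the other 5. In MDA594_olaparib 3 the skeletal muscle genes summed to 2070 CPM, against 8.1 to 9.52 CPM in the other 5 libraries. In OR2_olaparib 3 the transcripts encoded by mitochondrial DNA summed to 25300 CPM, against 61600 to 111000 CPM in the other 5. Nothing in the labels says that the libraries of a group are more than separate tumour samples, so the p-values measure the spread between these samples.

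Among 16330 genes tested with limma, 142 were higher and 116 lower in OR2_olaparib at a Benjamini-Hochberg adjusted p under 0.05, the threshold for every gene said to have risen, fallen or been called below. The called genes were 1.58% of those tested, 0.87% higher and 0.71% lower, and 2819 genes had an unadjusted p under 0.05. For 23.9% of all genes the 3 libraries of each group did not overlap, with OR2_olaparib above in 12.8% and below in 11.1%. The median difference over all genes was -0.02 on the log2 scale. The split between higher and lower genes varied with the values and the tool: log2(CPM + 1) values gave 112 higher and 135 lower, and limma-voom on the recovered reads, which also weights each value, called 137 higher and 214 lower. The number of calls also depended on single libraries. Without OR2_olaparib 1, 2 or 3 in turn, 280, 122 and 95 genes were higher and 258, 276 and 70 lower. Without MDA594_olaparib 1, 151 were higher and 114 lower, whereas without MDA594_olaparib 2 only 18 were higher and 30 lower, and without MDA594_olaparib 3, which leaves that group a single code, 6 were higher and 13 lower.

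The largest falls and rises were named only from called genes whose libraries did not overlap between the groups. Of the 12 largest falls, 4 were imprinted genes. Imprinted genes are read from only 1 of the parental copies, and a control region that is methylated on 1 of the copies marks which. The Snrpn region on chromosome 7 is read from the paternal copy and includes Snrpn (a splicing protein), Snurf, the makorin gene Mkrn3 and the long non-coding RNA Snhg14, which in mouse neurons silences the paternal copy of Ube3a. The Kcnq1 region on the same chromosome has Kcnq1ot1, a long non-coding RNA read from the paternal copy that keeps its neighbours silent there. The 250 bases before the RefSeq start of 3 of these transcripts (mouse build GRCm38.p6, minus strand) are shown because these genes led the falls, with each CG pair, the unit that DNA methylation marks, in capitals. The windows are chr7:60005200-60005449 for the shared start of Snurf and Snrpn, chr7:62420154-62420403 for Mkrn3 and chr7:143296548-143296797 for Kcnq1ot1.
Snurf and Snrpn: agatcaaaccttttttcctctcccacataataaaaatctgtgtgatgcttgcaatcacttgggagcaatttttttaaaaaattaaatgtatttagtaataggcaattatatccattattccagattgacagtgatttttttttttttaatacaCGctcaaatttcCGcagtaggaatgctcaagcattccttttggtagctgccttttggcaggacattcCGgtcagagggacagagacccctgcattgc
Mkrn3: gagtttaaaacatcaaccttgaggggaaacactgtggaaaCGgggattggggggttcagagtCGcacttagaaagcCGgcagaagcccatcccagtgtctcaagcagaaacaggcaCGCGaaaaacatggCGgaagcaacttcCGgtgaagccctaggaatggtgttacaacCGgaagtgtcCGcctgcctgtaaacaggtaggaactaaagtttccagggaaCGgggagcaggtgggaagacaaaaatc
Kcnq1ot1: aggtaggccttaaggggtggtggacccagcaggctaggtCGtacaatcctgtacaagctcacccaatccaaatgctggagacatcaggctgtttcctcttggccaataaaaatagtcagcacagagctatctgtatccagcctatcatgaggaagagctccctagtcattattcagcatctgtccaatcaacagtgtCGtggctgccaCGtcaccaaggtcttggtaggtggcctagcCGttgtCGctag
These windows hold 3, 10 and 5 CG pairs in that order. The median over 32851 RefSeq promoters of the same length was 6, and 37.8% had at most 3, 49.6% at most 5 and 64.4% at most 10. DNA methylation was not measured in these libraries.

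Snrpn measured -2.46, -1.47 and -1.92 log2 CPM in OR2_olaparib, against 4.54, 4.43 and 4.44 log2 CPM in MDA594_olaparib. All OR2_olaparib libraries were low, the groups were far apart, and the fitted difference was -6.42 on the log2 scale (SE 0.305, 95% interval -7.06 to -5.77, adjusted p = 1.1e-09). Snhg14 was at -3.36, -2.82 and -4.13 log2 CPM in OR2_olaparib and at 4.66, 4.56 and 4.87 log2 CPM in MDA594_olaparib. It fell by 8.16 on the log2 scale (SE 0.32, adjusted p = 9.2e-11), the smallest p of all genes. In RefSeq, Snhg14 spans the whole of Snurf and Snrpn, and Snrpn has 4 annotated starts of which 1 is shared with Snhg14, so the split of reads between them is uncertain. Gm38393, a gene model that overlaps Snurf and Snrpn on the same strand in the GENCODE annotation of GRCm38, had 4, 0 and 0 reads in OR2_olaparib against 1403, 883 and 699 reads in MDA594_olaparib (adjusted p = 3.61e-07). It was named after its values were seen.

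Mkrn3 fell to -4.43, -1.91 and -6.01 log2 CPM in OR2_olaparib, against 1.19, 1.38 and 1.5 log2 CPM in MDA594_olaparib. The groups were apart and the difference was -5.49 (SE 0.864, adjusted p = 0.00565), but the call was lost without MDA594_olaparib 3 (adjusted p = 0.0786). Kcnq1ot1 fell to -0.18, 1.68 and -1.40 log2 CPM in OR2_olaparib, against 6.05, 6.25 and 6.68 log2 CPM in MDA594_olaparib. OR2_olaparib 2 was the highest of its group and still far below every MDA594_olaparib library, and the difference was -6.33 (SE 0.58, adjusted p = 1.74e-05).

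Neighbours of these genes did not pass the test. Ube3a, a ubiquitin ligase, was at 7.47, 7.42 and 7.54 log2 CPM in OR2_olaparib and at 7.49, 7.55 and 7.46 log2 CPM in MDA594_olaparib, a difference of -0.02 (95% interval -0.33 to 0.29). Ndn and Peg12 differed by -0.62 and -1.35, with adjusted p of 0.815 and 0.407. In the Kcnq1 region the differences were 0.25 for the potassium channel Kcnq1, 0.92 for the cell cycle inhibitor Cdkn1c, -0.81 for Phlda2, -0.33 for Cd81 and 2.0 for Slc22a18, with adjusted p of 0.227 or more. Every OR2_olaparib library was above MDA594_olaparib for Cdkn1c and Slc22a18 (95% intervals 0.098 to 1.735 and 0.245 to 3.745). Every one was below for Phlda2 (-1.94 to 0.326), and Kcnq1 and Cd81 overlapped. Of all genes, 23.9% did not overlap.

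Igf2r, the receptor that clears the growth factor Igf2, was uneven among the OR2 tumours. It was at 9.05 log2 CPM in OR2_olaparib 1 but at 4.86 and 3.79 log2 CPM in OR2_olaparib 2 and 3, against 9.43, 9.21 and 9.45 log2 CPM in MDA594_olaparib. OR2_olaparib 1 lay just under the MDA594_olaparib libraries and the other 2 lay far under them. The difference of -3.48 missed the threshold with all libraries (adjusted p = 0.0501) and was -5.05 without OR2_olaparib 1 (adjusted p = 4.65e-08). Airn, the antisense RNA that silences the paternal Igf2r copy, was at 5.15, 5.33 and 4.61 log2 CPM in OR2_olaparib and 5.05, 5.24 and 5.30 log2 CPM in MDA594_olaparib (adjusted p = 0.958), and since the authors' counting of strand is not stated in the sources used here, reads of the overlapping stretch cannot be told apart. Igf2 itself, a growth factor read from the paternal copy, was at -1.86, -2.37 and -2.84 log2 CPM in OR2_olaparib and at 0.14, 0.11 and 2.32 log2 CPM in MDA594_olaparib, a difference of -3.39 with an adjusted p of 0.0726.

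Of the 45 imprinted genes listed, 35 were tested, 4 fell (Snrpn, Snhg14, Mkrn3 and Kcnq1ot1), none rose, and 24 differences were negative. The list median was -0.33, against -0.02 for all genes. None of 15 tested genes of DNA methylation and its maintenance was called, and their median difference was 0.05. The methyltransferase Dnmt3b differed by -1.17 (adjusted p = 0.136).

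**Figure D1:**
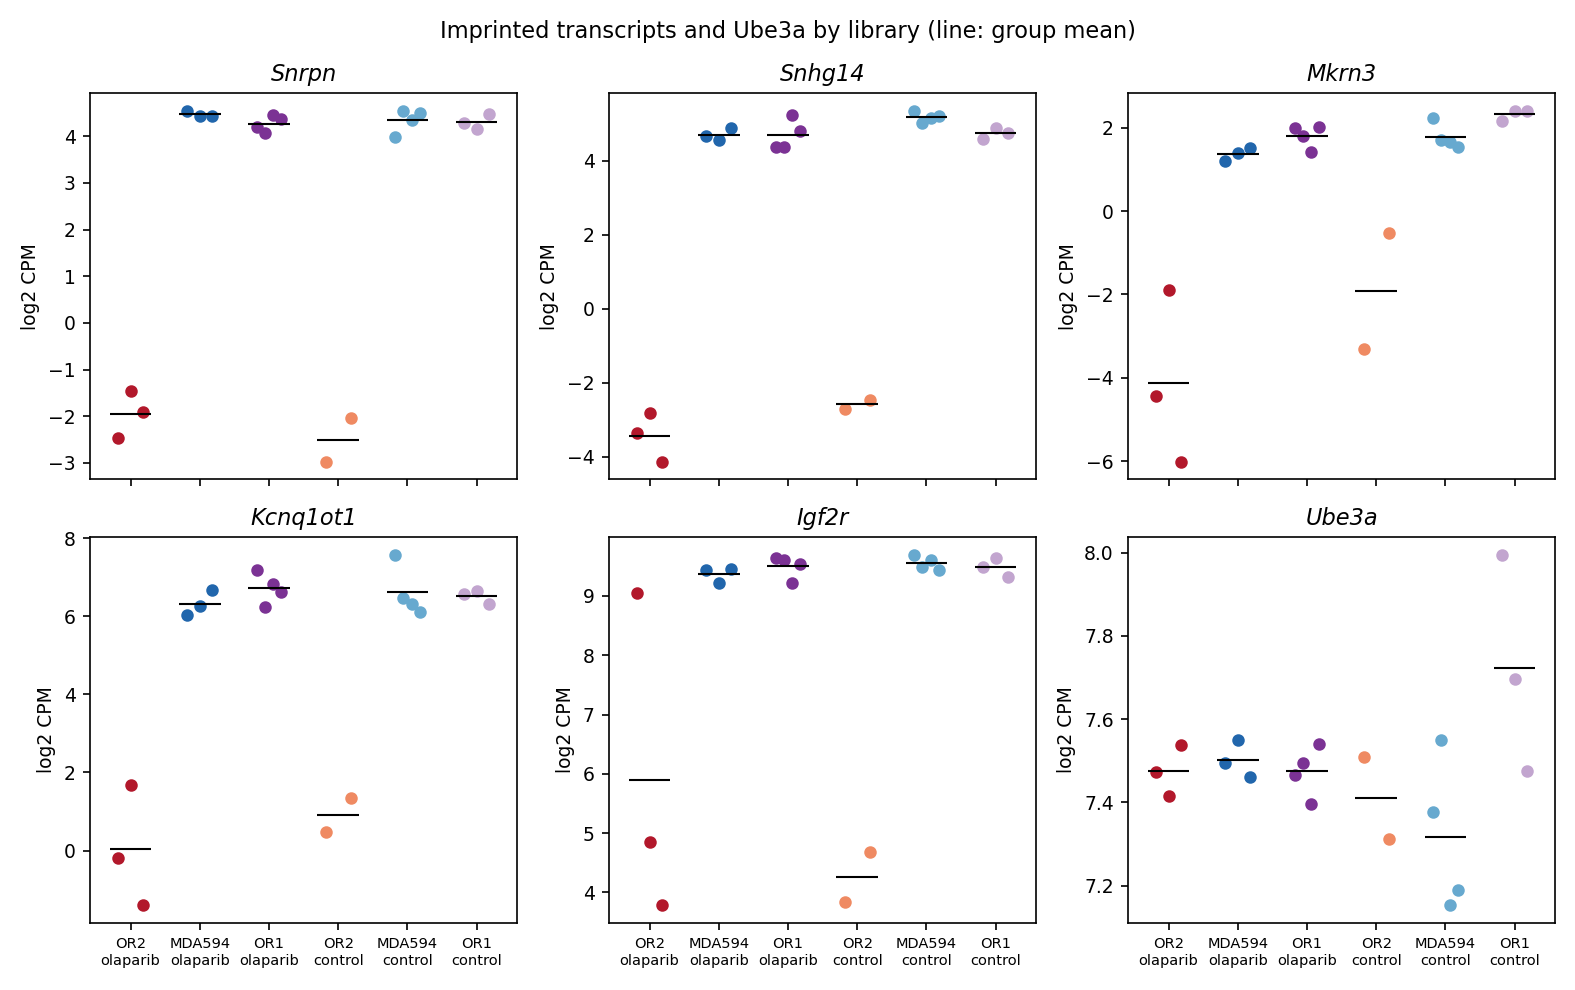
Log2 CPM of Snrpn, Snhg14, Mkrn3, Kcnq1ot1, Igf2r and Ube3a in every library of the 6 groups, 1 dot per library with a line at the group mean. Snrpn and Snhg14 are below 0 in all OR2_olaparib and OR2_control libraries and above 3 elsewhere, Igf2r is at 9.05 in OR2_olaparib 1 and between 3.79 and 4.86 in the other OR2 libraries, and Ube3a lies level in all groups.

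Other large falls spanned several kinds of gene. Rbp7, a retinol-binding protein, was at -1.48, 1.01 and -0.96 log2 CPM in OR2_olaparib and at 5.01, 6.39 and 5.61 log2 CPM in MDA594_olaparib. All OR2_olaparib libraries were low, and it fell by 6.14 (SE 0.947, adjusted p = 0.0049). Sox11, a transcription factor of progenitor cells, was at -0.32, 1.96 and 1.71 log2 CPM in OR2_olaparib and at 4.67, 4.94 and 5.19 log2 CPM in MDA594_olaparib, a fall of 3.85 (SE 0.646, adjusted p = 0.00924). Cubn, an endocytic receptor best known in kidney and gut, fell by 3.95 (adjusted p = 0.0108), with OR2_olaparib libraries at -2.46 to -1.04 and MDA594_olaparib libraries at 1.60 to 2.39 log2 CPM. The potassium channel gene Kcnq5 fell by 5.35 (adjusted p = 0.033), the transcription factor Bhlhe22 by 4.05 (adjusted p = 0.0262) and the fatty acid-binding protein Fabp7 by 3.90 (adjusted p = 0.0327). None of these groups overlapped, as the naming rule required.

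Gvin1, a giant interferon-inducible GTPase, and Trim12a, a relative of the antiviral Trim5, also fell, but their OR2_olaparib libraries disagreed. Gvin1 was at -3.13, 4.26 and -7.59 log2 CPM in OR2_olaparib and at 6.20, 5.57 and 5.44 log2 CPM in MDA594_olaparib (difference -7.86, SE 1.91, adjusted p = 0.0476). Trim12a was at -5.08, 1.45 and -7.59 log2 CPM in OR2_olaparib and at 4.29, 3.67 and 3.49 log2 CPM in MDA594_olaparib (difference -7.52, adjusted p = 0.0218). In both, OR2_olaparib 2 was the high library, which also had the highest macrophage sum of the 6 at 3280 CPM. Both genes have near-identical paralogs that can share reads, so their values are uncertain, and none of the 8 paralog entries looked at was called. Trim5, Gvin3 and Trim30d had adjusted p of 0.0641, 0.0501 and 0.0594, Trim30a and Gvin2 differed by -1.70 and -2.02 (0.174 and 0.173), and Trim12c (difference -0.47) and both Gvin-ps7 entries (adjusted p of 0.334 and 0.307) overlapped between the groups. Of the 12 largest falls, none lost its call without OR2_olaparib 2, whereas 1 (Gvin1) did without OR2_olaparib 1 and 3 without OR2_olaparib 3 (Gvin1, Kcnq5 and Fabp7, adjusted p of 0.0742 to 0.0991). Without MDA594_olaparib 1, Gvin1 was lost. Without MDA594_olaparib 2, 5 were lost (adjusted p of 0.059 to 0.108), and without MDA594_olaparib 3, 9 were lost (0.0508 to 0.23), which left Snhg14, Snrpn and Kcnq1ot1.

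The largest rises, of which 11 are described, were led by genes near or below detection in MDA594_olaparib. Mpped1, a metallophosphoesterase-domain protein, was at 1.89, 0.64 and 1.61 log2 CPM in OR2_olaparib and had 0 reads in all MDA594_olaparib libraries. Against a floor of 3 reads per library, averaged over the group, it was at least 76.1-fold higher (adjusted p = 0.000482). Vit, an extracellular matrix protein, was at 0.27, 4.43 and 2.39 log2 CPM in OR2_olaparib and at -3.26, -7.32 and -2.48 log2 CPM in MDA594_olaparib (difference 6.50, adjusted p = 0.0378). The OR2_olaparib libraries of Vit were spread over more than 4 log2 units, and all lay above the other group, as the naming rule required.

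Several transcription factors and signalling genes rose. Cux2, a homeobox factor, was at 4.15, 3.98 and 4.25 log2 CPM in OR2_olaparib and at 0.29, -0.25 and 0.81 log2 CPM in MDA594_olaparib, a rise of 3.78 (SE 0.629, adjusted p = 0.00901). Gata6, a zinc finger factor of endoderm and heart, was at 2.61, 2.73 and 2.48 log2 CPM in OR2_olaparib and at -0.75, -2.12 and -0.34 log2 CPM in MDA594_olaparib, a rise of 3.59 (SE 0.742, adjusted p = 0.0279). Wif1, a secreted inhibitor of Wnt ligands, was at 3.68, 3.65 and 2.97 log2 CPM in OR2_olaparib and at 0.30, -0.36 and -0.98 log2 CPM in MDA594_olaparib (difference 3.86, adjusted p = 0.0236). In each of the 3 genes every OR2_olaparib library was above every MDA594_olaparib library, as the naming rule required.

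The other named rises included secreted and membrane proteins. Chi3l1, a secreted chitinase-like protein, was at 10.33, 9.01 and 7.14 log2 CPM in OR2_olaparib and at 6.09, 5.59 and 4.53 log2 CPM in MDA594_olaparib (difference 3.53, adjusted p = 0.0317). St6galnac3, which adds sialic acid to glycans, rose by 3.44 (adjusted p = 0.0149), Brsk2, a kinase of the AMPK family, by 4.28 (adjusted p = 0.0211), Exph5, an effector of vesicle transport, by 4.02 (adjusted p = 0.035), Fgfbp1, which carries fibroblast growth factors, by 3.89 (adjusted p = 0.0327), and the zinc finger gene Zfp345 by 3.31 (adjusted p = 0.0399). Without OR2_olaparib 1, 2 or 3, 1, 2 and 4 of the 11 rises lost their call (adjusted p up to 0.0752), and without MDA594_olaparib 1 only Zfp345 did. Without MDA594_olaparib 2, 9 were lost (0.0502 to 0.102), which left Mpped1 and Cux2, and without MDA594_olaparib 3, 9 were lost (0.0508 to 0.255), which left Mpped1 and St6galnac3.

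**Figure D2:**
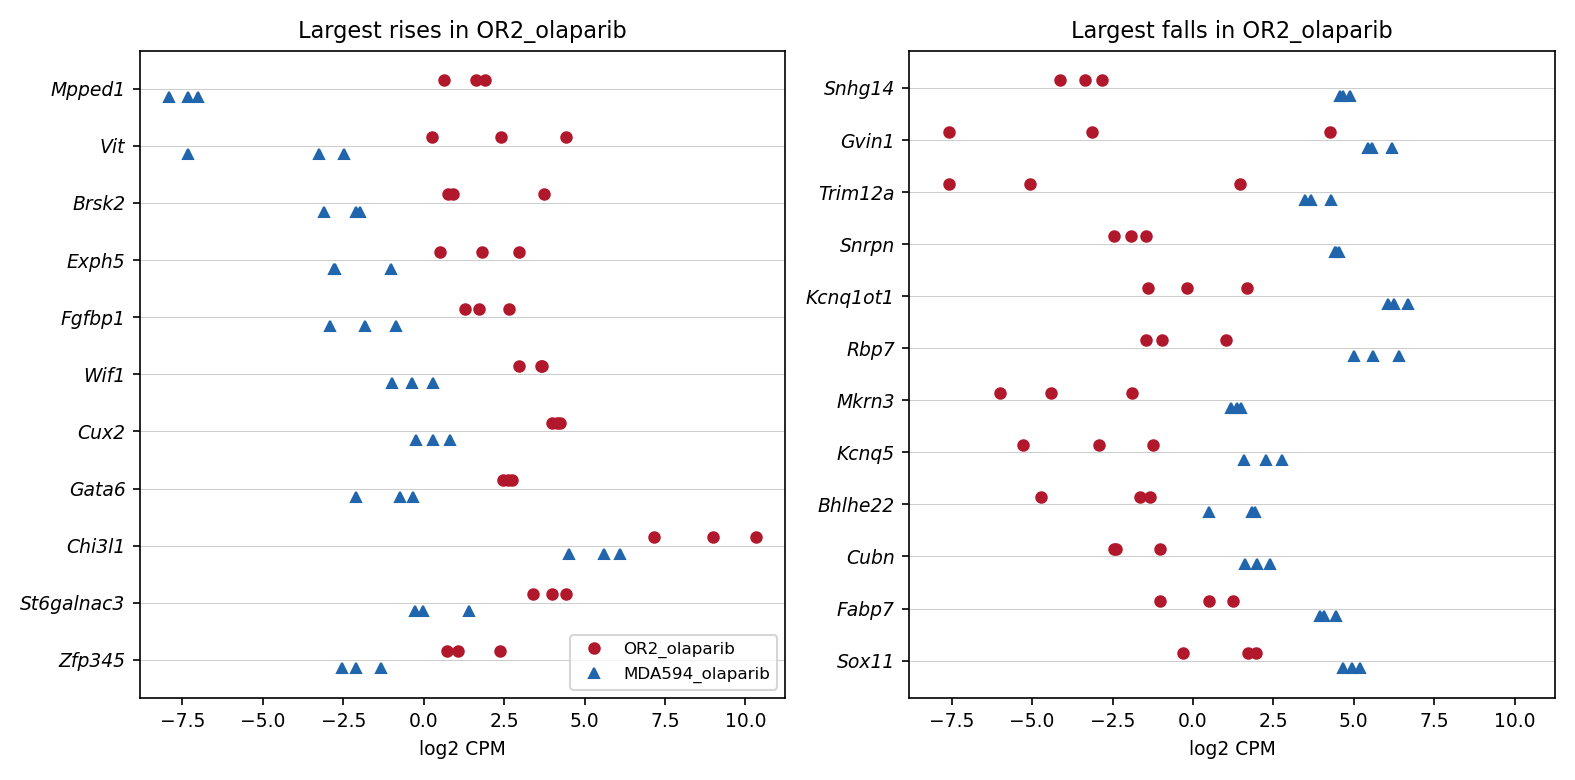
Log2 CPM per library of 11 of the largest rises and the 12 largest falls, with circles for the 3 OR2_olaparib libraries and triangles for the 3 MDA594_olaparib libraries. The groups do not overlap in any row, as the naming rule required, and the OR2_olaparib circles of Gvin1 (-7.59 to 4.26) and Trim12a (-7.59 to 1.45) are the most spread.

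Among drug efflux transporters, Abcg2 fell. Abcg2 encodes a pump that exports many drugs, and was first found in resistant breast cancer cells. It was at 5.57, 6.26 and 5.74 log2 CPM in OR2_olaparib and at 7.88, 8.25 and 7.95 log2 CPM in MDA594_olaparib. Every OR2_olaparib library was lower, with a difference of -2.16 (SE 0.299, 95% interval -2.79 to -1.53, adjusted p = 0.00261), and the call held with any 1 of the 6 libraries left out. The pumps best known for exporting olaparib in mouse tumours, Abcb1a and Abcb1b, were not called. Abcb1b was at 0.14, 1.61 and 0.04 log2 CPM in OR2_olaparib and at 2.31, 2.32 and 1.98 log2 CPM in MDA594_olaparib (difference -1.58, 95% interval -2.54 to -0.62, adjusted p = 0.0873), and Abcb1a differed by -0.96 (95% interval -2.01 to 0.08). Of 8 efflux genes tested, 1 fell and none rose, 5 differences were negative and the median was -0.54. The 8 genes summed to 191 to 242 CPM in OR2_olaparib and to 414 to 452 CPM in MDA594_olaparib.

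Interferon-induced genes lay mostly lower in OR2_olaparib, but few passed the test. Of 42 tested, 1 fell (Irgm1) and none rose, 41 differences were negative, 16 had an unadjusted p under 0.05 and were all lower, and the median was -1.08 against -0.02 for all genes. Irgm1, an immunity-related GTPase that controls vacuoles around pathogens, was at 5.77, 6.16 and 5.85 log2 CPM in OR2_olaparib and at 7.97, 7.64 and 7.08 log2 CPM in MDA594_olaparib. Its groups did not overlap and it fell by 1.58 (SE 0.343, adjusted p = 0.0327). Isg15, a ubiquitin-like protein, was at 2.50, 3.38 and 2.24 log2 CPM in OR2_olaparib and at 4.78, 3.80 and 3.54 log2 CPM in MDA594_olaparib, a difference of -1.27 that was not called (adjusted p = 0.233). Summed over the list, interferon-induced genes came to 1030, 1280 and 735 CPM in OR2_olaparib and to 3750, 2100 and 1690 CPM in MDA594_olaparib, without overlap.

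All 16 tested chemokines had negative differences, with a median of -1.08, and 1 fell. Cxcl10, which draws activated T and NK cells, was at 3.74, 3.90 and 3.13 log2 CPM in OR2_olaparib and at 6.49, 6.11 and 5.59 log2 CPM in MDA594_olaparib. Every OR2_olaparib library was lower, and it fell by 2.42 (SE 0.546, adjusted p = 0.0366). Ccl5, another T-cell attractant, overlapped between the groups and differed by -0.65 (adjusted p = 0.463). The chemokine median was -2.04 without OR2_olaparib 2. The promoters of Cxcl10 (chr5:92348890-92349139) and Irgm1 (chr11:48871421-48871670), both on the minus strand of GRCm38.p6 from RefSeq, are shown because both genes fell and both hold the core of the element bound by interferon regulatory factors. The bases that match it are in capitals.
Cxcl10: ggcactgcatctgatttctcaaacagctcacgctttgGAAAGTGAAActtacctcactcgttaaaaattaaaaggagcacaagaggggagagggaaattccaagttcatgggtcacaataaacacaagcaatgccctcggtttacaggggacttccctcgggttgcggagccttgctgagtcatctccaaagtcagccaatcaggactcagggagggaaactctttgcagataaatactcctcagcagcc
Irgm1: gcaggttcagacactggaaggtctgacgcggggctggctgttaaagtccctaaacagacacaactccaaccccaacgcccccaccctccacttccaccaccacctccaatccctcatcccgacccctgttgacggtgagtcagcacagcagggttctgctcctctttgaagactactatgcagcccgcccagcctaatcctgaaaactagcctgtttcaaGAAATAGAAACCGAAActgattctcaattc
Cxcl10 holds 1 match and Irgm1 2 overlapping matches, counted on both strands. Counted per gene over its annotated starts, the same core was found in 15 of 29 interferon-list genes (51.7%). It was found in 4 of 87 genes called lower (4.6%) and in 2 of 108 called higher (1.85%). Among all tested genes with a promoter it was found in 379 of 11257 (3.37%). Counted per promoter, it was in 2.98% of all 32851 promoters of that length.

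T-cell and NK-cell markers had differences of the same sign as the interferon and chemokine genes, and in bulk samples fewer cells of a type and less RNA per cell cannot be told apart. All 20 tested T-cell genes had negative differences, with a median of -1.73, and 1 fell. That gene was Bcl11b, a transcription factor of T cells that other tissues also express, at -0.75, 0.80 and -1.25 log2 CPM in OR2_olaparib and 2.24, 3.23 and 3.38 log2 CPM in MDA594_olaparib (difference -3.40, SE 0.679, adjusted p = 0.0229). Bcl11b also lies in a run of chromosome 12 genes that were lower together, described further on. The T-cell genes summed to 34.6 to 72.7 CPM in OR2_olaparib and to 80.3 to 106 CPM in MDA594_olaparib. All 9 NK-cell genes were lower, none was called, and their sum was 1.83, 17.7 and 5.06 CPM in OR2_olaparib against 23.6, 28.2 and 17.4 CPM in MDA594_olaparib, so that OR2_olaparib 2 lay within the range of the sensitive tumours. Klrk1, which encodes the activating receptor NKG2D, differed by -2.61 (95% interval -4.33 to -0.90, adjusted p = 0.112). No T-cell or NK-cell gene of these lists was at 0 in either group.

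Antigen presentation genes were also all lower without a call. The 12 MHC class II genes had a median of -1.84 and summed to 437, 1680 and 469 CPM in OR2_olaparib, against 4180, 2540 and 1980 CPM in MDA594_olaparib. Ciita, the master regulator of class II, differed by -3.03 with an adjusted p of 0.0531. The 21 MHC class I genes had a median of -0.65. Within it, H2-K1 differed by -0.59 and B2m by -0.65, and both overlapped between the groups. The macrophage list was mixed, with 17 of 21 differences negative and none called, and its sum of 706, 3280 and 1430 CPM in OR2_olaparib overlapped that of 2180, 1680 and 2150 CPM in MDA594_olaparib. The part of host immune cells in the interferon and chemokine values was not tested.

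Sensors and ligands upstream of this response did not pass the test. Cgas differed by -0.27 (95% interval -0.86 to 0.33) and Sting1 by -0.76 (95% interval -1.37 to -0.16, adjusted p = 0.182). None of 22 genes of nucleic acid sensing and none of 10 NK ligands was called, with medians of -0.47 and -0.38. The NK ligands Raet1d and Ulbp1 differed by -0.18 and -0.15, and the checkpoint ligand Cd274 (PD-L1) by -1.35 (adjusted p = 0.27). Of 25 NF-kB and inflammatory genes 1 fell, the adhesion molecule Vcam1, which endothelium uses to capture leukocytes. Vcam1 was at 3.81, 5.07 and 3.65 log2 CPM in OR2_olaparib and at 6.54, 6.0 and 6.39 log2 CPM in MDA594_olaparib, a difference of -2.15 (SE 0.414, adjusted p = 0.0211) without overlap. None of 7 Schlafen genes was called, and Slfn8 and Slfn9 differed by -0.36 and -0.53.

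Neutrophil genes had differences of the opposite sign to the lymphocyte genes. All 13 tested were positive, with a median of 1.01 and no call. The list summed to 75.3, 192 and 99.5 CPM in OR2_olaparib and to 41.6, 44.3 and 42.3 CPM in MDA594_olaparib, without overlap. The alarmins S100a9 and S100a8 differed by 2.0 and 1.70 and lactoferrin (Ltf) by 2.84, none of them called. The 7 neutrophil attractants were split, 4 positive and 3 negative.

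**Figure D3:**
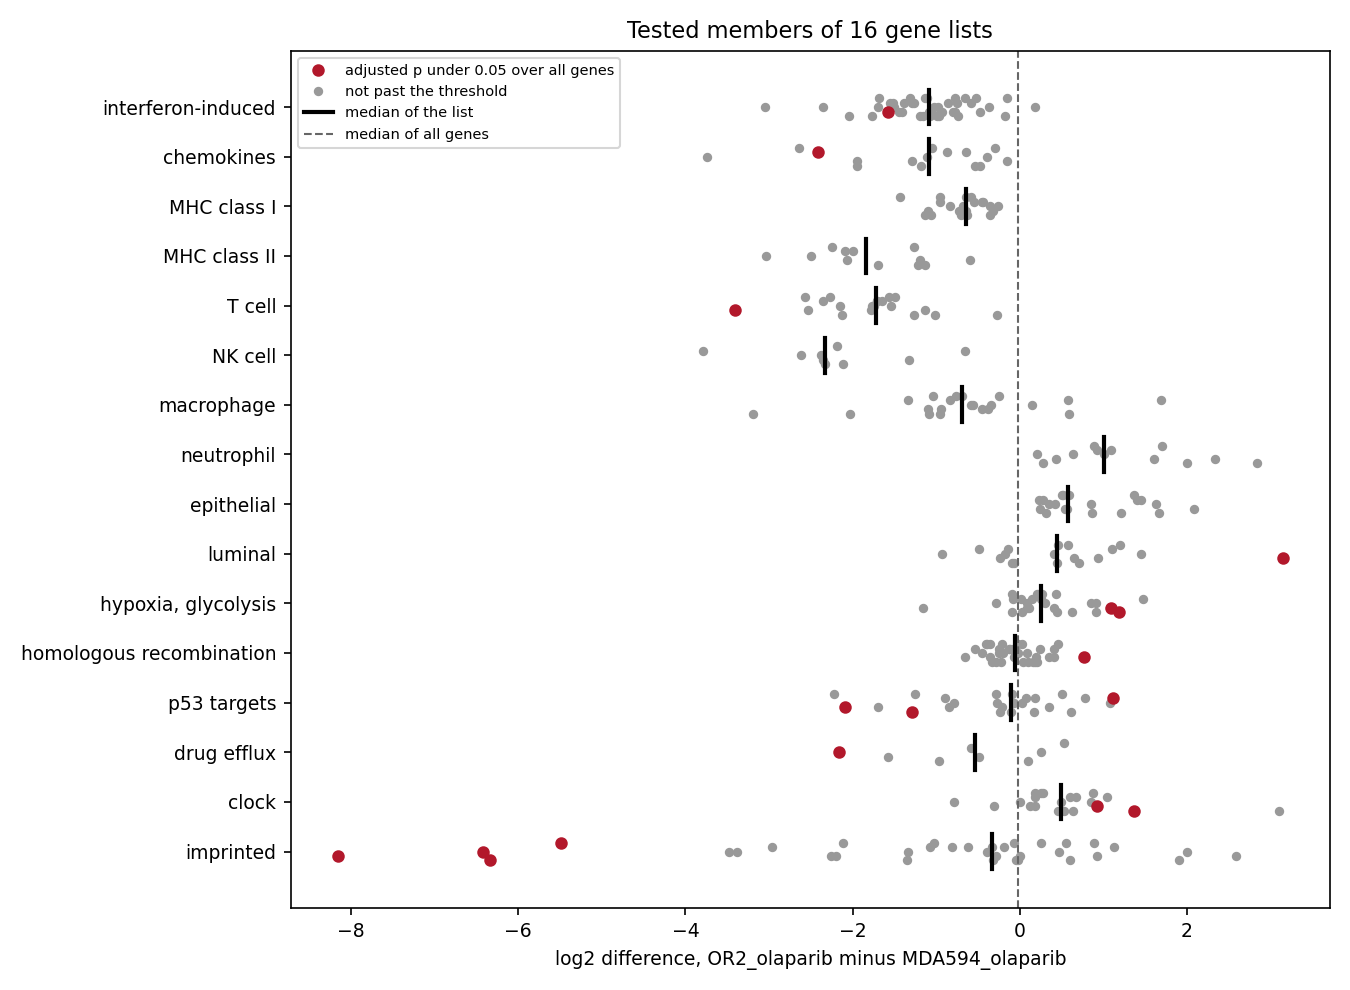
Log2 differences, OR2_olaparib minus MDA594_olaparib, of the tested members of 16 gene lists, 1 dot per gene. Red dots passed an adjusted p of 0.05 over all genes, black bars are list medians (-1.08 for interferon-induced genes, 1.01 for neutrophil genes, 0.58 for epithelial genes), and the dashed line is the median of all genes, -0.02.

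Epithelial genes lay higher as a list. All 20 tested had positive differences, 11 had an unadjusted p under 0.05, none was called, and the median was 0.58. Ocln, of tight junctions, differed by 1.41 (adjusted p = 0.0612) and Muc1 by 1.21 (adjusted p = 0.0716), whereas Epcam differed by 0.23 (95% interval -0.47 to 0.93). Their sum overlapped, at 3220, 3640 and 6090 CPM in OR2_olaparib and 3520, 2410 and 2600 CPM in MDA594_olaparib. Of 18 luminal genes 1 rose, Spdef, an ETS factor of luminal and secretory epithelium, at 0.20, 2.63 and 2.72 log2 CPM in OR2_olaparib and at -1.25, -1.44 and -1.22 log2 CPM in MDA594_olaparib. The difference of 3.14 had an SE of 0.768 (adjusted p = 0.0486), and OR2_olaparib 1 was the lowest of its group. No basal gene of 17 was called. The luminal keratin Krt8 differed by 0.54 and the basal keratin Krt14 by -0.37 (95% interval -3.77 to 3.03).

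No stromal list held a call. Among 25 fibroblast genes 18 differences were negative, with a median of -0.36 and sums of 1360 to 7130 CPM in OR2_olaparib and 2090 to 4350 CPM in MDA594_olaparib. Among 19 endothelial genes 18 were negative, with a median of -0.77 and overlapping sums of 166 to 344 CPM in OR2_olaparib and 244 to 445 CPM in MDA594_olaparib. Vimentin (Vim) differed by -0.74 (95% interval -1.66 to 0.18). The skeletal muscle list had a median of -4.44, which became -0.01 without MDA594_olaparib 3.

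Among genes of the olaparib targets and of known resistance routes, Parp1, Parp2, Parg, Brca1 and Brca2 were not called. Over all genes tested 1.58% were called, the share to set beside the list counts that follow. Parp1 was at 6.77, 6.89 and 7.70 log2 CPM in OR2_olaparib and at 6.93, 6.92 and 7.10 log2 CPM in MDA594_olaparib, a difference of 0.12 (95% interval -0.37 to 0.61). Parp2 differed by -0.26 (95% interval -0.67 to 0.15) and Parg by -0.04 (95% interval -0.38 to 0.31). Brca1 was at 6.29, 5.62 and 5.97 log2 CPM in OR2_olaparib and at 5.55, 5.41 and 5.54 log2 CPM in MDA594_olaparib, without overlap, but its difference of 0.45 was not called (95% interval -0.17 to 1.08, adjusted p = 0.453). Brca2 differed by 0.08 (95% interval -0.42 to 0.58).

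End protection genes were likewise uncalled, 0 of 17, with a median of -0.04. Trp53bp1 (53BP1) differed by 0.24 (95% interval -0.12 to 0.60), Rif1 by -0.15 (95% interval -0.57 to 0.26) and Mad2l2 (REV7) by 0.17 (95% interval -0.29 to 0.63). The shieldin genes Shld1, Shld2 and Shld3 differed by 0.33, 0.22 and 0.24, with intervals that all included 0 and the widest for Shld3 (-0.50 to 0.97). These intervals leave differences of up to about 1 log2 unit within the error, and mutations are not measured by these values.

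Among 36 homologous recombination genes 1 rose, Rad51d, which acts in repair by homologous recombination. It was at 3.70, 3.81 and 3.99 log2 CPM in OR2_olaparib and at 3.03, 3.12 and 3.06 log2 CPM in MDA594_olaparib, without overlap, a rise of 0.76 (SE 0.167, adjusted p = 0.0327). The list median was -0.06, and 22 of 36 differences were negative. None of 20 Fanconi anaemia genes and none of 25 PARP and base excision repair genes was called. Of 15 end-joining genes 1 fell, Poll, the gap-filling DNA polymerase lambda, at 4.34, 4.32 and 4.60 log2 CPM in OR2_olaparib and 5.63, 6.31 and 5.38 log2 CPM in MDA594_olaparib (difference -1.31, SE 0.247, adjusted p = 0.0198). Poll lies in a stretch of chromosome 19 whose genes were lower together, described further on. Of 20 checkpoint kinase genes 1 fell, Rad9a, part of the clamp that activates the ATR kinase, at 4.21, 3.95 and 4.21 log2 CPM in OR2_olaparib and 5.04, 5.19 and 5.35 log2 CPM in MDA594_olaparib (difference -1.09, SE 0.17, adjusted p = 0.00537).

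Of 25 p53 target genes, 2 fell and 1 rose, with a median of -0.11. Phlda3, which restrains AKT signalling, was at 1.37, 2.94 and 2.87 log2 CPM in OR2_olaparib and at 4.17, 4.68 and 4.57 log2 CPM in MDA594_olaparib (difference -2.09, SE 0.47, adjusted p = 0.0355). Aen, a nuclease of apoptosis, was at 2.57, 3.78 and 4.17 log2 CPM in OR2_olaparib and at 4.65, 4.81 and 4.90 log2 CPM in MDA594_olaparib (difference -1.29, adjusted p = 0.033). Perp, which is also a desmosome protein of epithelia, rose by 1.12 (SE 0.266, adjusted p = 0.0437). OR2_olaparib 1 was the lowest of the 6 libraries for both Phlda3 and Aen. Trp53 itself differed by -0.79 (95% interval -1.68 to 0.10), with OR2_olaparib at 4.43, 3.53 and 2.91 log2 CPM and MDA594_olaparib at 4.39, 4.33 and 4.50 log2 CPM, and the classic target Cdkn1a by -0.84 (95% interval -1.74 to 0.06).

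Hypoxia and clock genes each held 2 rises. Of 27 hypoxia and glycolysis genes 22 differences were positive, with a median of 0.25. Egln3, an oxygen-sensing prolyl hydroxylase that HIF itself induces, was at 7.98, 8.06 and 8.50 log2 CPM in OR2_olaparib and at 6.98, 7.10 and 6.92 log2 CPM in MDA594_olaparib, a rise of 1.19 (SE 0.271, adjusted p = 0.0373). Bnip3, a receptor for the removal of mitochondria, rose by 1.09 (SE 0.254, adjusted p = 0.0409), with OR2_olaparib at 7.56 to 7.97 and MDA594_olaparib at 6.57 to 7.07 log2 CPM. Of 21 circadian clock genes 18 differences were positive, with a median of 0.49. The opposing nuclear receptors of the clock both rose. Nr1d1 (REV-ERBalpha), a repressor, was at 4.96, 6.08 and 5.59 log2 CPM in OR2_olaparib and at 4.46, 4.17 and 3.98 log2 CPM in MDA594_olaparib (difference 1.37, adjusted p = 0.0245). Rora, an activator, was at 6.07, 5.85 and 5.38 log2 CPM in OR2_olaparib and at 5.12, 4.88 and 4.62 log2 CPM in MDA594_olaparib (difference 0.92, adjusted p = 0.0282). The time of day of collection is not given in the sources used here.

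Proliferation lists held no call. Of 32 mitosis genes 30 differences were negative, with a median of -0.26, and of 31 replication genes 27, with a median of -0.15. Of 29 NRF2 and glutathione genes 1 fell, the redox enzyme Txnrd1, at 5.80, 6.0 and 6.36 log2 CPM in OR2_olaparib and 6.85, 6.91 and 6.93 log2 CPM in MDA594_olaparib (SE 0.187, adjusted p = 0.0337). None of 25 genes of the unfolded protein response was called. Over all 45 lists, 31 held no call at all.

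The calls of the 17 list members named above depended on single libraries, while their differences kept their sign. With 1 library left out, the difference ran from -2.71 to -2.19 for Cxcl10 and, more widely, from -1.62 to -0.821 for Aen. Without OR2_olaparib 1, 2 or 3, 2, 4 and 8 of the 17 lost their call, and without MDA594_olaparib 1, 7 did. Without MDA594_olaparib 2, 13 were lost (adjusted p of 0.056 to 0.118), which left Vcam1, Poll, Rad9a and Abcg2. Without MDA594_olaparib 3, 15 were lost (0.0925 to 0.314), which left Poll and Abcg2.

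Placed in the RefSeq gene order of GRCm38, used only for neighbourhood, the calls were uneven along the chromosomes. The order held 14524 of the 16330 genes. Chromosome 19 carried 3.59% of placed genes but 17.6% of placed lower calls (19 of 108). Of these, 15 lay among 33 neighbouring genes running from Slc25a28 to Fbxw4, and all 33 differences there were negative, with a median of -1.16. These bounds are the first and last called gene, set after the values were seen. The run found by a running median over 31 genes, from Loxl4 to 4933429K18Rik, held 42 genes, of which 35 were negative and 7 positive, with a median of -1.002. The 10 genes on either side of the 33 had medians of 0.26 and -0.09. Among the called members, Chuk encodes the IKKalpha kinase of NF-kB signalling, Hif1an an oxygen sensor that restrains HIF and Btrc a ubiquitin ligase subunit. Ndufb8 encodes a part of respiratory complex I, Twnk the mitochondrial DNA helicase and Poll the polymerase above. Entpd7, Hif1an and Fbxw4 had the smallest adjusted p in the block (0.0049).

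Since the 33 genes were chosen on these 6 libraries, their levels there are a description. Relative to the mean of each gene over the libraries, they had medians of -0.07, -0.45 and -0.46 in OR2_olaparib and of 0.63, 0.98 and 0.74 in MDA594_olaparib. The untreated libraries overlapped, at -0.30 and -0.46 in OR2_control and at -0.30, 0.24, 0.65 and 0.52 in MDA594_control, where MDA594_control 1 was low. OR1_olaparib libraries lay between -0.46 and -0.02, so the block was also lower there than in MDA594_olaparib. DNA copy number was not measured in these files.

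The other runs found in the same way were longer and had medians nearer 0. A run of 66 genes on chromosome 10 (Ptprk to Gm34006) had a median of -0.62 and 6 lower calls, and a run of 207 genes on chromosome 17, which contains Igf2r, had a median of -0.54 with 1. A run of 75 genes on chromosome 12 (Gtf2a1 to Evl), which contains Bcl11b, had a median of -0.37 and 2 lower calls. A run of 123 genes on chromosome 9 (Klhdc8b to Ano10) had a median of 0.55 and 5 higher calls. On chromosome 11, runs of 68 and 92 genes had medians of 0.45 and 0.40 and 6 higher calls each. For OR1_olaparib minus MDA594_olaparib, on the same MDA594 libraries, the medians were -0.44 on chromosome 10, -0.49 on 17 and -0.06 on 12. They were 0.46 on chromosome 9, and 0.14 and 0.24 on 11. For OR2_control minus MDA594_control the medians in that order were -0.65, -0.42, -0.08, 0.16, 0.62 and 0.65. OR2_olaparib 1 departed from its group in the chromosome 17 run, at 0.26 against -0.44 and -0.42 in OR2_olaparib 2 and 3, and in the chromosome 12 run, at 0.03 against -0.26 and -0.55. It did so too in the chromosome 11 runs, at -0.10 against 0.40 and 0.44, and at -0.18 against 0.30 and 0.38.

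**Figure D4:**
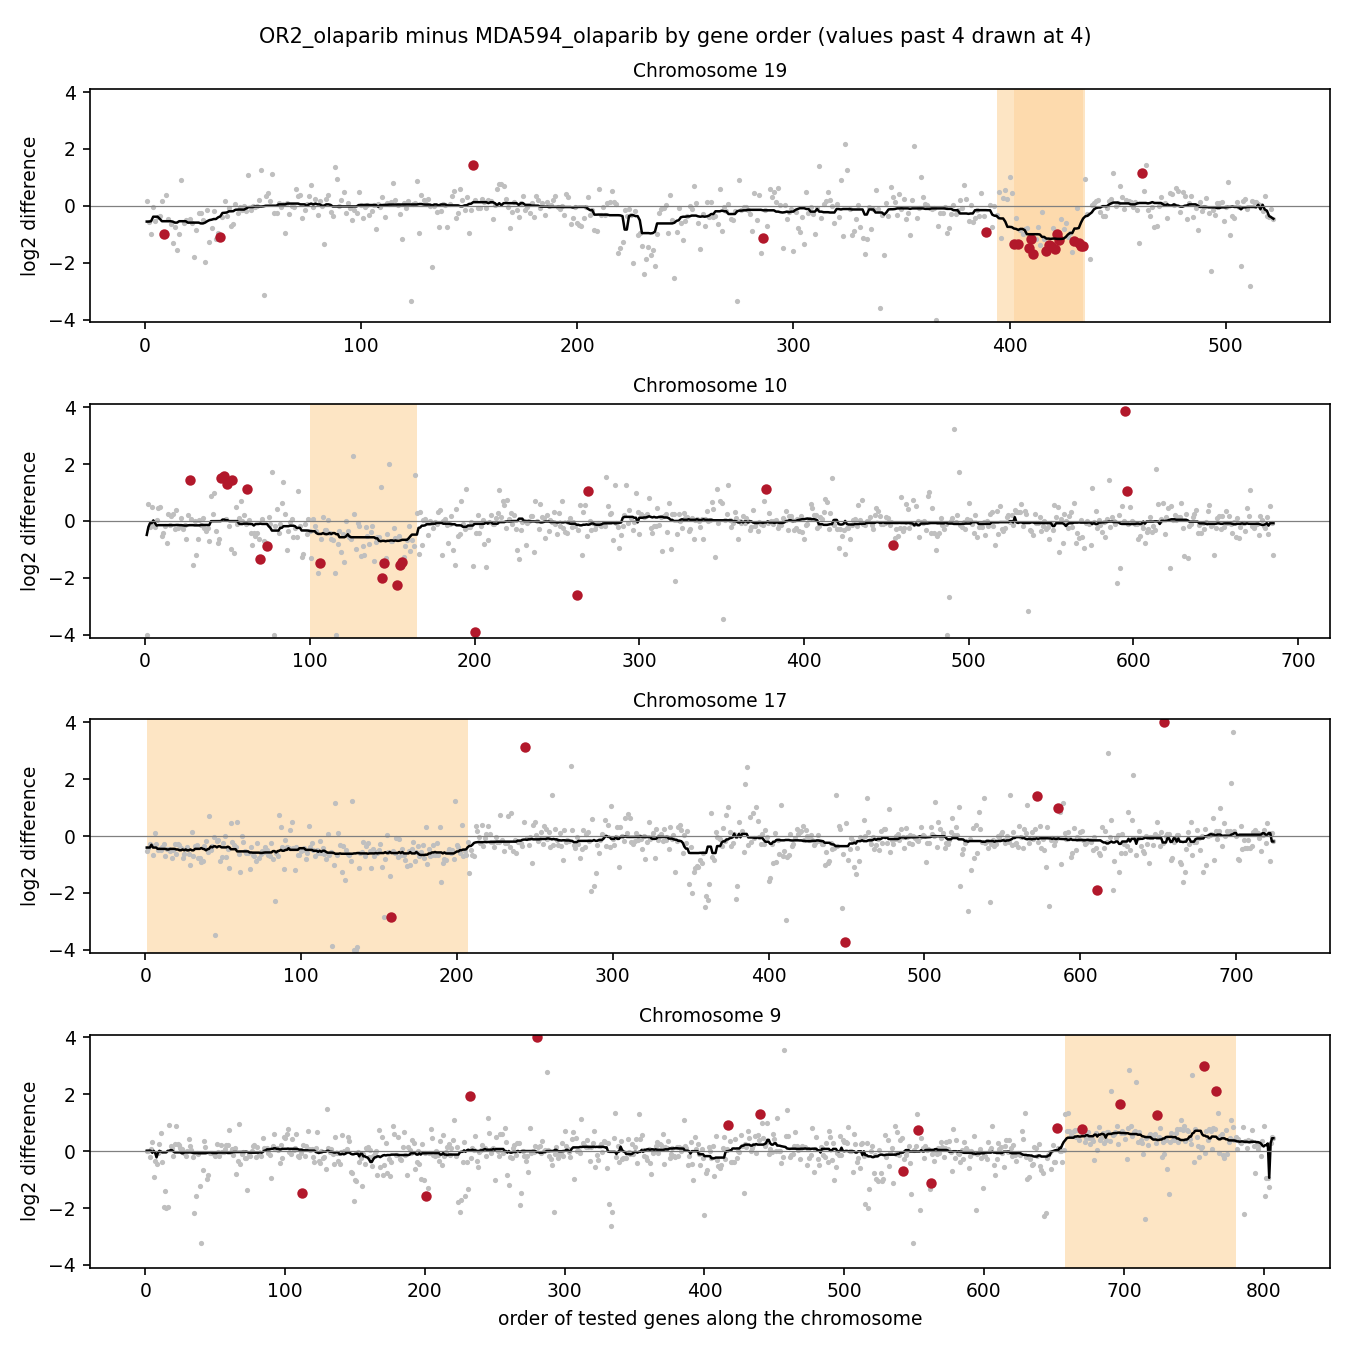
Log2 differences, OR2_olaparib minus MDA594_olaparib, along the gene order of chromosomes 19, 10, 17 and 9, with 1 dot per gene (red where called, values past 4 drawn at 4), a black running median over 31 genes and shaded runs. The 33 genes of the chromosome 19 block all lie below 0, with a median of -1.16.

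The same lines were also compared without olaparib, to see which differences were there already. Of 16330 genes, 35 (0.214%) were called between OR2_control and MDA594_control, 21 higher (0.129%) and 14 lower (0.0857%) in OR2_control. Of the 258 genes called under olaparib, 233 (90.3%) had the same sign without it, against 64.1% of all genes, and 116 of them also had an unadjusted p under 0.05. The sign was kept by 127 of 142 higher and 106 of 116 lower genes. Only 8 genes were called in both states, 3.1% of the treated and 22.9% of the untreated calls. The groups differ in number and in title codes between the states, and OR2_control has 2 libraries that share 1 code. Without OR2_control 1 or 2, 1 and 97 genes were higher and 4 and 126 lower. Without MDA594_control 1, 3 or 4, 53, 40 and 39 were higher and 43, 26 and 26 lower.

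Of the 4 imprinted falls, 3 were also called without the drug. Snrpn was at -2.97 and -2.04 log2 CPM in OR2_control and at 4.0 to 4.54 log2 CPM in MDA594_control (difference -6.84, adjusted p = 4e-09). Snhg14 differed by -7.77 (adjusted p = 2.2e-09) and Kcnq1ot1 by -5.79 (adjusted p = 0.000521). Igf2r was at 3.84 and 4.69 log2 CPM in OR2_control and at 9.44 to 9.69 log2 CPM in MDA594_control, and passed the test there (difference -5.30, adjusted p = 0.0351). Mkrn3 differed by -3.74 without a call (adjusted p = 0.128). Abcg2 was at 7.08 and 6.75 log2 CPM in OR2_control and at 7.43 to 8.46 log2 CPM in MDA594_control, a difference of -1.05 that was not called (adjusted p = 0.233).

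The interferon-induced list had medians of opposite sign in the 2 states. The median was -1.08 under olaparib and 0.87 without it. For Cxcl10 the untreated libraries were at 3.73 and 3.22 log2 CPM in OR2_control and at 4.72, 2.51, 2.67 and 2.34 log2 CPM in MDA594_control, where MDA594_control 1 was high, a difference of 0.32 (adjusted p = 0.934). Isg15 differed by 1.82 without olaparib (adjusted p = 0.259). T-cell and MHC class II lists were lower in both states, with untreated medians of -1.81 and -2.38. Whether any gene's difference changed with treatment was tested as a difference of differences. No gene was called by limma, with a smallest adjusted p of 0.556 and 1006 genes at an unadjusted p under 0.05, and limma-voom on recovered reads also called none. Without OR2_control 2, 30 genes were called, and without OR2_olaparib 2, 3 were.

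**Figure D5:**
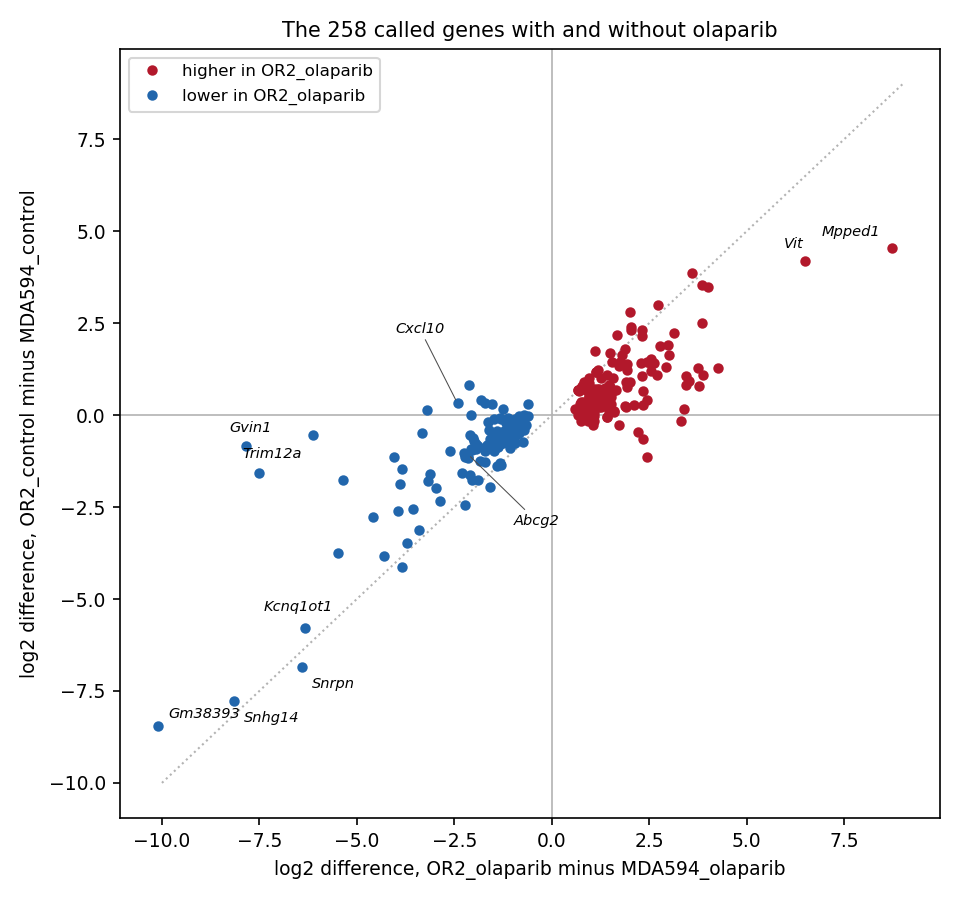
The 258 genes called under olaparib, with the log2 difference OR2_olaparib minus MDA594_olaparib on the horizontal axis and OR2_control minus MDA594_control on the vertical axis, red for higher and blue for lower genes. Snrpn, Snhg14 and Kcnq1ot1 lie near the dotted line of equal differences, and Cxcl10 lies at -2.42 and 0.32.

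Set against the second resistant line under the same treatment, OR2_olaparib differed in few genes, 14 in all (0.0857%), 2 higher (0.0122%) and 12 lower (0.0735%). Get1, of membrane protein insertion, and Hlcs, which attaches biotin to carboxylases, were higher by 1.05 and 0.85 (adjusted p of 0.00503 and 0.0335). Against MDA594_olaparib, Get1 and Hlcs differed by 0.30 and 0.38 in OR2_olaparib, neither called. In OR1_olaparib they differed from MDA594_olaparib by -0.75 (adjusted p = 0.0489) and -0.47 (adjusted p = 0.155). The lower genes included Snhg14 (-8.12, adjusted p = 2.29e-11), Snrpn (-6.23, adjusted p = 4.25e-10), Kcnq1ot1 (-6.71, adjusted p = 1.88e-06) and Mkrn3 (-5.95, adjusted p = 0.00228). They also included Igf2 (-5.68, adjusted p = 0.0062), Zcchc12, a zinc finger gene on the X chromosome (-5.33, adjusted p = 2.49e-05), and Egflam, a matrix protein (-2.58, adjusted p = 0.0187). Lef1, the Wnt pathway transcription factor, was at 3.49, 4.67 and 4.81 log2 CPM in OR2_olaparib and at 6.08 to 6.48 log2 CPM in OR1_olaparib, without overlap (difference -1.94, adjusted p = 0.00503). Against MDA594_olaparib, Lef1 differed by 0.07 in OR2_olaparib (adjusted p = 0.934) and by 2.01 in OR1_olaparib (adjusted p = 0.00893). The other 4 were Gm38393, Gm44832, Gm10687 and C030005K06Rik. Without OR2_olaparib 1, 28 genes were higher and 190 lower, and without OR2_olaparib 2, 28 were lower.

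OR1_olaparib can be placed beside these values, although its comparison with MDA594_olaparib uses the same 3 MDA594 libraries. In that comparison 89 genes were called (0.545%), 52 higher (0.318%) and 37 lower (0.227%). The imprinted falls were not shared: Snrpn was at 4.08 to 4.45 log2 CPM and Kcnq1ot1 at 6.25 to 7.17 log2 CPM in OR1_olaparib. Abcg2 was at 6.44 to 7.34 log2 CPM in OR1_olaparib, between the OR2_olaparib range of 5.57 to 6.26 and the MDA594_olaparib range of 7.88 to 8.25. Rbp7 was at -0.17 to 0.92 log2 CPM in OR1_olaparib, within the OR2_olaparib range. The interferon list median was -0.75 for OR1_olaparib minus MDA594_olaparib, beside -1.08 for OR2_olaparib minus MDA594_olaparib.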

How the data were processed

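The authors deposited 1 table of log2 CPM (counts per M reads) for 16411 genes in 20 libraries. Poly(A) RNA was extracted with RNeasy columns and made into KAPA stranded libraries, per the labels' protocols, and the tools in the submitters' processing notes are STAR (2.7.10a), RSEM (1.3.1) and limma, with the build GRCm39. The annotation, strand setting and gene filter of the authors are not given in the sources used here. In all libraries the deposited values came out as whole reads (100% within a tolerance of 0.01 reads) plus 0.5 per scaled M reads. Columns were matched to samples by title, and 0 value columns were left unused. One library, whose title says control and whose treatment label says treated, entered no comparison.

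Genes with log2 CPM above 0 in at least 2 libraries were kept (16330, 81 removed). The deposited log2 values of 19 libraries in 6 groups were fitted with limma 3.58.1 in R 4.3.3, with 1 mean per group, a correlation of 0.404 between libraries that share a final title code (14 codes) and a variance trend, on 13 residual degrees of freedom. Differences are contrasts of group means, tests are two-sided, intervals are 95%, and the Benjamini-Hochberg adjustment runs over the 16330 genes. The fit was checked on simulated libraries that kept the real groups and codes. Alternatives changed the filter, added constant, scaling, tool, samples and covariates, and left out each library.

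The comparison, the 45 gene lists and the alternatives were chosen with earlier results of these data known. Named genes were the 12 largest rises and 12 largest falls among called genes with a mean of at least 1 log2 CPM in the higher group, no overlap of libraries and a symbol other than a clone or model number. One of these rises is not reported here. To these were added up to 4 called members per list with the smallest p and a fixed set of genes of olaparib resistance, cGAS and STING signalling and NK cells. Neighbours of imprinted genes, paralogs of Gvin1 and Trim12a, genes of the comparison with OR1, and uncalled list members were named after their values were seen. Levels are not compared between genes, since the values are not per length.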

Additional observations from a re-analysis of the deposited data

Results flagged for a closer look

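Within groups of 4 libraries, 208 sets of values were searched for 1 library that stands apart by Dixon's criterion, and 8 did, where chance flags about 1 set in 20. Of these, 3 were MDA594_control 1 in genes named in the report. It was at 7.36 log2 CPM for Irgm1 (the other MDA594_control libraries 6.16 to 6.30), at 4.72 for Cxcl10 (the others 2.34 to 2.67) and at 4.58 for Poll (the others 5.22 to 5.32). Without this library, 53 genes were higher and 43 lower in OR2_control than in MDA594_control. By mean log2 CPM of a list, MDA594_control 2 stood out for hypoxia and glycolysis at 7.62 (the others 7.19 to 7.24), and MDA594_control 3 for epithelial-mesenchymal transition genes at 4.75 (the others 3.96 to 4.05). Among OR1_olaparib libraries, number 3 was apart for neutrophil attractants, at 1.38 (the others 2.16 to 2.18), and for the relative median of the chromosome 10 run from Ptprk to Gm34006, at 0.36 (the others -0.15 to -0.08). Exph5 was at 2.10 log2 CPM in OR1_olaparib 2 (the others -0.61 to -0.29).

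The library with conflicting labels, an MDA594 tumour left out of every comparison, lay above all 9 control libraries in the mean log2 CPM of 11 of 45 lists. Most of these were immune lists. Interferon-induced genes were at 4.82 (controls 2.72 to 4.55), T-cell genes at 1.83 (controls -2.41 to 1.40), NK-cell genes at 1.72 (controls -2.82 to 0.84) and dendritic cell genes at 3.01 (controls 0.30 to 2.69). MHC class I was at 8.40 (controls 6.39 to 8.04), MHC class II at 6.22 (controls 1.97 to 5.67), checkpoint genes at 3.45 (controls 2.17 to 3.27) and NK ligands at 4.67 (controls 3.63 to 4.48). The others were the unfolded protein response at 6.39 (controls 6.06 to 6.37), skeletal muscle genes at 2.37 (controls -3.50 to 1.63) and adipocyte genes at 1.85 (controls -0.02 to 1.72). The MDA594_olaparib range included it for interferon-induced (4.74 to 6.03), dendritic cell (2.83 to 3.30) and checkpoint genes and NK ligands. That range also included it for the unfolded protein response, and for muscle and adipocyte genes through MDA594_olaparib 3 alone. The library lay above the range for T-cell (0.904 to 1.635), NK-cell (0.784 to 1.415), MHC class I and MHC class II genes.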

How the results depend on the processing

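Of the named called genes, 60 were followed through up to 22 alternatives, which gave 1318 values. The call was kept in 970 and lost in 348, and no sign changed. Snhg14, Snrpn, Kcnq1ot1, Abcg2 and Gm38393 kept their call in every alternative run. Of 1166 medians of gene lists, chromosome runs and the chromosome 19 block, 1110 stayed within 1 SD of their reported value and 56 moved further. The causes of the changes below were not tested.

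For the 142 higher and 116 lower genes under olaparib, the counts without a correlation between libraries of a code were 459 and 338. Fitting the compared groups alone, which leaves fewer degrees of freedom, gave 47 and 53. That fit could not estimate the code correlation, so it is the same as the fit of the 6 libraries alone. The library-name series without OR2_olaparib 1 gave 975 and 979, with a negative code correlation of -0.298. Quantile normalisation gave 223 higher genes and limma-voom 214 lower genes. With the title number as a term, 128 and 142 genes were called, with a code correlation of -0.127. Only 16 and 27 of them were shared with the reported calls. The treated groups share no title number. OR2 libraries share one with another line only through OR2_olaparib 1 and MDA594_control 2. Title-number differences between OR2 and another line, here and below, therefore rest on that pair of libraries. The small overlap of calls cannot decide between line and title number. Leaving out 1 library gave 6 to 280 higher and 13 to 276 lower genes. The labels give both treated groups the same 3 position marks. Deviations of libraries with the same mark correlated at -0.055, -0.067 and -0.16, and those with different marks at -0.133 to 0.189. With 3 libraries a group, these values cannot decide whether the marks pair the samples. With the mark as a replicate block 7 genes were higher and 12 lower.

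For the difference of differences, where none was called, the title number as a term gave 302 genes, the larger library-name series gave 963, and leaving out 1 library gave 0 to 30. Against OR1_olaparib (2 higher, 12 lower), the counts were 6 and 20 without the code correlation, 1 and 6 with the compared groups alone, and 181 and 627 in the larger series. The higher count was 1 with limma-voom, with averaged libraries of a code and with the title number. Leaving out 1 library gave 1 to 28 higher and 8 to 190 lower. In untreated tumours (21 higher, 14 lower), the counts were 52 and 23 on log2(CPM + 1), 37 and 22 with quantile normalisation, 298 and 244 without the code correlation, 5 and 8 with averaged libraries of a code, 1 and 6 with the compared groups alone, 93 and 108 with the title number, and 2217 and 1813 in the larger series. The lower count was 9 with median-centred libraries and without the variance trend, and 8 with limma-voom. Leaving out 1 library gave 1 to 97 higher and 4 to 126 lower.

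Sign changes were seen only in genes not called. Those under the title number carry the limit given above for that fit. With the title number, Parp1 was at -0.70, Parp2 at 0.19, Shld2 at -0.24, Krt8 at -0.66, Krt14 at 2.19, H2-K1 at 1.11, Ulbp1 at 0.11 and Trim12c at 0.0495. With the series as a term, Krt14 was at 0.47 and Parg at 0.022, and in the larger series Parg was at 0.074, Brca2 at -0.14, Ndn at 0.23 and Raet1d at 0.0109. With 1 library left out, Parp1 ran from -0.17 to 0.299, Brca2 from -0.14 to 0.25, Parg from -0.199 to 0.0662, Krt14 from -1.06 to 0.25, Ulbp1 from -0.332 to 0.0341, Raet1d from -0.436 to 0.0954, Ube3a from -0.0537 to 0.00792, Ndn from -1.57 to 0.0271 and Kcnq1 from -0.11 to 0.612.

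With 3 tumours a group, and MDA594_olaparib resting on 2 codes, most calls near the threshold hang on single libraries. OR2_olaparib 1 differs from its group in library series, in Igf2r and in the chromosome 11, 12 and 17 runs. Within that group series and tumour cannot be told apart. MDA594_control 1 and 2 belong to the series of OR2_olaparib 1, and their Igf2r was at 9.69 and 9.49 log2 CPM. In MDA594_control 3 and 4, of the other series, Igf2r was at 9.60 and 9.44 log2 CPM. Whether series or title number had a part in how OR2_olaparib 1 differed was not tested.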

Other observations

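The called genes included 3 type IV collagens, which form the network of basement membranes. These and the following genes were chosen after their values were seen and stand for no gene group. Col4a1 was at 8.03, 9.73 and 9.14 log2 CPM in OR2_olaparib and at 11.04, 11.13 and 11.33 log2 CPM in MDA594_olaparib, a fall of 2.22 (adjusted p = 0.0254), and its partner Col4a2 fell by 2.23 (adjusted p = 0.0203). Col4a6 was at 6.43, 8.01 and 7.22 log2 CPM in OR2_olaparib and at 5.62, 4.68 and 4.25 log2 CPM in MDA594_olaparib, a rise of 2.44 (adjusted p = 0.033). Egflam fell by 3.55 (adjusted p = 0.00158), the metalloprotease gene Adam19 by 2.07 (adjusted p = 0.0272) and the plasminogen activator Plat by 1.82 (adjusted p = 0.0337). Untreated differences were -1.13 for Col4a1 and -1.13 for Col4a6, neither called, so that Col4a6 had the opposite sign without olaparib.

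Ppara, a nuclear receptor of fatty acid oxidation, was at 1.60, 0.86 and 1.2 log2 CPM in OR2_olaparib and at -1.40, -1.44 and -1.22 log2 CPM in MDA594_olaparib (difference 2.56, adjusted p = 0.00924). Thrsp, which promotes fat synthesis, rose by 2.54 (adjusted p = 0.0288), the epidermal transcription factor Zfp750 by 2.33 (adjusted p = 0.0327) and the membrane protease Tmprss13 by 1.93 (adjusted p = 0.00924). The transcriptional regulators Cited2 and Nupr1 rose by 1.43 and 1.68 (adjusted p of 0.0409 and 0.0418). Zcchc12 fell to -3.98, -3.88 and -3.50 log2 CPM in OR2_olaparib, against 0.52, 0.80 and 0.31 log2 CPM in MDA594_olaparib (difference -4.30, adjusted p = 0.00152), and was also lower in untreated tumours (-3.84, adjusted p = 0.028). Without OR2_olaparib 1, of the 13 genes above Nupr1 and Plat lost their call, without OR2_olaparib 2 Nupr1 and Col4a6 did, and without OR2_olaparib 3 Nupr1, Plat, Cited2, Adam19, Zfp750 and Col4a6 did. Without MDA594_olaparib 1 none did. Without MDA594_olaparib 2 these calls were lost for all but Ppara, Tmprss13, Zcchc12 and Egflam, and without MDA594_olaparib 3 for all but Zcchc12 and Egflam.

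In the library with conflicting labels, Snrpn was at 4.42, Abcg2 at 8.05, Irgm1 at 7.72 and Cxcl10 at 5.66 log2 CPM.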
